A study of Mus musculus with 145 samples.

Results

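RPG1 is the first by number of the 4 reprogramming clusters that the authors named when spermatogonial stem cells (SSCs) were left in culture until some became pluripotent, and it is described here by the cells that carry that cluster name in their annotation. These were 333 of the 4339 cells of the original condition, or 7.67%. They lay in 14 of 46 libraries, and 7 libraries held at least 5 of them, 321 in all. The SSC lines came from early postnatal F1 males born to *Oct4*-EGFP or EGFP transgenic C57BL/6 females and DBA/2 males. In *Oct4*-EGFP mice the promoter and distal enhancer of *Oct4* drive the green reporter. The labels give all libraries this same strain and do not say which of the transgenes a library carried. The cells had received no chemical. They were kept in StemPro-34 medium with EGF, bFGF, GDNF and ESGRO, colonies that looked like SSCs or like pluripotent cells were picked on days 0 to 27, and single cells were moved by mouth pipette into barcoded lysis buffer. Because colonies were chosen by eye, a share of cells is a share of what was picked. Samples of SSCs reprogrammed with 5 chemicals (5C) are also used, near the end of the Results.

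SSCs are the self-renewing cells at the base of sperm production. GDNF, acting through RET and GFRA1, holds them in self-renewal, while retinoic acid turns on *Stra8* and starts differentiation and later meiosis. Unlike most somatic cells they can become pluripotent in culture without added genes, and the cells that do so lose germ cell genes such as *Dazl* and *Ddx4* and gain those of the pluripotent network.

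The RPG1 cells came late in the culture. There were none among the picked cells of days 0, 8, 10, 12 and 16, where 3 cells would have set limits between 0.525% (571 cells, day 16) and 3.45% (87 cells, day 8). Day 14 held 8 of 566 cells, or 1.41% (exact binomial 95% interval 0.612 to 2.77). The share was 9.76% on day 18 (64 of 656), 18.9% on day 20 (160 of 846) and 14.9% on day 23 (100 of 669), and 1 of 473 cells carried the name on day 27. The cluster's number did not follow the day of picking: 8 RPG2 and 7 RPG3 cells were present in day 12 replicate 2, before any RPG1 cell, and on day 14 replicates 5 and 6 held 15 and 21 RPG2 cells beside 4 and 1 RPG1 cells. These intervals and limits cover counting error only, and the libraries of a day differed widely, as the next values show.

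The 7 libraries with at least 5 RPG1 cells were also libraries rich in the later reprogramming clusters. Day 18 replicate 3 held 36 RPG1 and 58 RPG3 cells, and day 18 replicate 5 held 28 and 65. Day 20 replicate 1 held 52 RPG1 and 29 RPG3 cells, and day 20 replicate 2 held 53 and 26. On day 23, replicate 1 held 39 RPG1, 35 RPG3 and 20 SSC1-4 cells, and replicate 2 held 61 RPG1 and 31 RPG3 cells. RPG2, RPG3 and RPG4 cells together gave 15.7% of the UMIs of day 20 replicate 8, the lowest of the 7, and 71.8% of those of day 18 replicate 5, the highest. A UMI (unique molecular identifier) marks 1 captured RNA molecule. SSC1-4, the sum of the 4 SSC clusters, had at least 5 cells in 36 libraries, and in only 2 of these, day 20 replicate 8 with 26 cells and day 23 replicate 1 with 20, did they sit beside RPG1 cells of that number. Day 20 replicate 8 joins cells of 2 name series: 34 of its RPG1 cells had names beginning with D20_1 and 18 with D20_4, while 24 of its 26 SSC1-4 cells were of D20_4. Values within the shared libraries are therefore also given with only the D20_4 cells of that library, a comparison chosen after the data were seen.

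**Figure D1:**
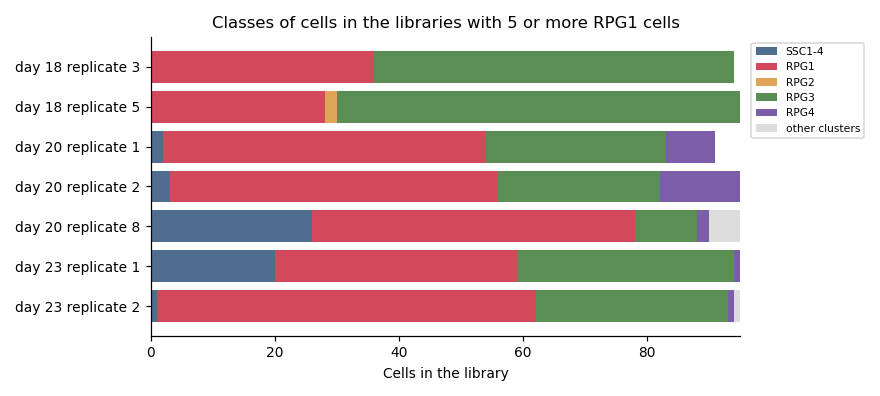
Number of cells of each class in the 7 libraries with at least 5 RPG1 cells; bar length is the count of cells and colour the class given in the authors' annotation. RPG3 cells were present in all 7 libraries, and only day 20 replicate 8 and day 23 replicate 1 held 20 or more SSC1-4 cells.

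RPG1 cells were sequenced about as deeply as SSCs. The median was 238901 UMIs and 8523 genes per RPG1 cell and 248474 UMIs per SSC1-4 cell, with 0.931% and 0.925% of UMIs from mitochondrial genes. Libraries held between 15975410 and 34609591 UMIs, and the RPG1 sums that entered the comparisons between 7179664 and 15777564. The same 96 barcode numbers were used throughout, and each occurred in 33 to 46 of the libraries. Levels below are CPM, the UMIs of a gene per 1e6 UMIs, summed over the cells of 1 class in 1 library, scaled by TMM, and a library is 1 replicate. The labels do not say whether the libraries came from separate cultures, so the spread between them may be partly technical. RPG1 cells of day 20 replicates 1 and 2, and 34 of those of replicate 8, had names beginning with D20_1. Those of day 23 replicates 1 and 2 had names beginning with D23_1. What these names stand for is not given. The SDs, SEs and p-values below still count each library as 1 replicate. A gene passed at a Benjamini-Hochberg adjusted p below 0.05 over all genes in edgeR's quasi-likelihood test and was called at an adjusted p below 0.01 with a natural-log fold change of at least 1. RPG1 and SSC1-4 are clusters of these same transcriptomes, so between them the values describe how far the clusters stand apart and are no independent test.

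By its markers, RPG1 was a germ cell population. *Dazl*, an RNA-binding protein needed in germ cells, stood at 761 ± 91.8 CPM in RPG1 (SD, n = 7) and 797 ± 179 in SSC1-4 (n = 36), against 116 in RPG3. *Ddx4*, the germ cell RNA helicase, stood at 363 ± 14.9 against 427 ± 74.3, and *Zbtb16*, the transcription factor PLZF of undifferentiated spermatogonia, at 81.3 ± 15.9 against 110 ± 35.8. None of these 3 passed (adjusted p = 0.841, 0.135 and 0.0984). The sum of 7 SSC markers was 1537 to 1842 CPM over the RPG1 libraries and 1374 to 2554 over the SSC1-4 libraries, while RPG3 held 322 to 685. The sum of 18 genes of other testis cells was 38.4 to 72.4 CPM in RPG1 and 8.56 to 94.3 in SSC1-4, and that of 20 fibroblast genes 139 to 198 against 37.9 to 299.

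The 5 genes given as markers of RPG1 were all higher than in SSC1-4, in every RPG1 library relative to the SSC1-4 median. *Dppa5a*, which encodes a KH-domain protein of pluripotent cells (chromosome 9, 78367052 to 78368177, minus strand, GRCm38), read 298 and 393 CPM in day 18 replicates 3 and 5. It read 127, 137 and 101 in day 20 replicates 1, 2 and 8, and 196 and 225 in day 23 replicates 1 and 2. The lowest SSC1-4 library had 51.0, the median 73.7 and the highest 152, so the groups overlapped and 4 of 7 RPG1 libraries lay above all SSCs. The log2 fold change was 1.45 ± 0.15 (SE, adjusted p = 3.51e-09).

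*Apoe*, the lipid carrier apolipoprotein E (chromosome 7, 19696109 to 19699188, minus strand), was the marker whose groups did not overlap. It read 210.5 and 275 CPM in the day 18 libraries, 171, 136 and 133 in those of day 20 and 143 and 207 in those of day 23. The SSC1-4 libraries ran from 1.87 over a median of 33.9 to 112 (log2 fold change 2.13 ± 0.29). *Ifitm2*, an interferon-induced membrane protein, stood at 215 ± 85.8 CPM against 51.3 ± 33.1, and 6 of 7 RPG1 libraries exceeded every SSC1-4 library. *Slc2a3*, the glucose transporter GLUT3, stood at 153 ± 49.6 against 52.4 ± 22.8 and was lowest in the 2 libraries of day 18, at 75.1 and 107. *Trh*, the precursor of thyrotropin-releasing hormone, had the largest ratio of the 5, at 67.6 ± 39.2 CPM against 9.03 ± 7.98 (log2 fold change 2.82 ± 0.37).

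Per cell, all 5 markers had a UMI in most RPG1 cells, but some had one in most SSCs too. After each cell was thinned to 100000 UMIs, which left out 48 shallower RPG1 cells, *Trh* had a UMI in 272 of 285 RPG1 cells, or 95.4% (exact binomial 95% interval 92.3 to 97.5), and *Tdgf1* in 276, or 96.8%. Without thinning these shares were 99.6% and 99.3%. *Dppa5a*, *Slc2a3* and *Apoe* had a UMI in 100% of RPG1 cells and *Ifitm2* in 99.6%. In SSC1-4 cells of libraries without any RPG2, RPG3 or RPG4 cell these 4 had one in 90.7%, 85.3%, 59.7% and 67.5%. The same SSCs had *Trh* in 24.5% and *Tdgf1* in 7.94% of 1725 cells. SSC1-4 cells of the RPG1 libraries, 39 at this depth, had them in 89.7% and 97.4%. The 2 sets of SSCs thus differed in these shares, at median depths before thinning of 247165 and 254098 UMIs, and the part of free RNA in them was not tested.

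Across 16472 genes, 395 passed as higher (2.4%) and 497 as lower (3.02%) in RPG1 than in SSC1-4. Of these, 76 were called higher (0.461%) and 84 lower (0.51%), and the median log2 fold change of all genes was -0.03. Within batch B1 (5 RPG1 and 29 SSC1-4 sums) 22 were called higher and 36 lower, and within B2 (2 and 7 sums) 3 and 0, with 1334 genes at an unadjusted p below 0.05. The 2 libraries with both classes, compared with the library as a block, gave 1 gene called higher and 0 lower, with 891 genes at an unadjusted p below 0.05. With 1 name series per library the block gave 2 and 0, with 847 genes below that p. Leaving out 1 library gave 54 to 71 called higher and 45 to 88 lower, and the lower count was 49 without day 18 replicate 3, 54 without day 18 replicate 5, 55 without day 20 replicate 1 and 45 without day 20 replicate 2. The genes are described below by their level in RPG3, a later cluster of the same branch.

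Most genes higher in RPG1 were higher still in RPG3. Of the 76 genes called higher in RPG1, 55 were called lower in RPG1 than in RPG3, as were 9.55% of all 13419 genes of that comparison. They included *Stmn2*, a microtubule regulator (30.2 CPM in RPG1, 1.52 in SSC1-4 and 453 in RPG3), and *Tdgf1*, the NODAL co-receptor CRIPTO (79.3, 4.04 and 773). *L1td1*, an RNA-binding protein of pluripotent cells derived from a LINE-1 element, read 26.7, 1.42 and 538, and the X-linked homeobox gene *Rhox5* 60.7, 5.18 and 563. *Nr0b1* and *Fgf4*, a nuclear receptor and a growth factor of the pluripotent network, had log2 fold changes of 4.37 and 4.37 from levels of 0.392 and 0.302 CPM in SSC1-4. *Ifitm3* (2.67), the oncogene *Myc* (2.59), the lactate exporter gene *Slc16a3* (2.07), the protease-activated receptor gene *F2rl1* (1.81) and the small heat shock protein gene *Hspb1* (1.78) belonged here too. *Nanog* passed at 12.9 against 2.24 CPM and *Sox2* at 59.7 against 19.2.

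The levels were below those in RPG3 cells of the same library, by an amount that differed between genes. Over the 7 libraries, RPG1 held 1.97 to 8.34% of the RPG3 level of *L1td1*, 4.81 to 14.9% of *Tdgf1*, 8.31 to 23.6% of *Dppa5a*, 13.4 to 26.1% of *Apoe* and 26.8 to 55.3% of *Slc2a3*, which was not called against RPG3. In the median library the share was 33.5% for *Slc2a3*, 22.8% for *Ifitm2* and 19.5% for *Apoe*, but 5.65% for *Nanog*.

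For several of these genes the SSCs that shared a library with RPG1 held levels close to those of RPG1. *Tdgf1* read 32.3 CPM in RPG1 and 30.2 in SSC1-4 of day 20 replicate 8, and 49.7 and 41.2 in day 23 replicate 1. *Trh* read 26.8 and 30.4, then 37.4 and 26.4. *Dppa5a* was lower in RPG1 than in SSC1-4 in day 20 replicate 8 (101 and 133 CPM) and higher in day 23 replicate 1 (196 and 152). Over the 31 SSC1-4 libraries without RPG2 to RPG4 cells, *Tdgf1* ran from 0 to 13.8 CPM with a median of 0.40, and over the 5 with such cells from 0 to 41.2 with a median of 10.5. With the library as a block, the log2 fold change was -0.01 for *Dppa5a*, 0.19 for *Tdgf1*, 0.16 for *Trh*, 0.39 for *Apoe*, 0.55 for *Ifitm2* and 0.53 for *Slc2a3*. For other genes the libraries differed. In day 23 replicate 1 *Slc2a3* read 191 in RPG1 and 97.2 in SSC1-4, *Slc16a3* 77.4 and 26.02 and *Myc* 15.3 and 2.46. In day 20 replicate 8 *Slc2a3* read 129 and 122, while *Slc16a3* (62.98 and 69.8) and *Myc* (2.74 and 3.78) were lower in RPG1, and none of these genes passed in the block. The 46 of the 55 genes tested there had a median of 0.32, beside 0.03 over all genes of that fit, and 43 of them had a median of 0.23 with 1 name series per library, beside 0.02.

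**Figure D2:**
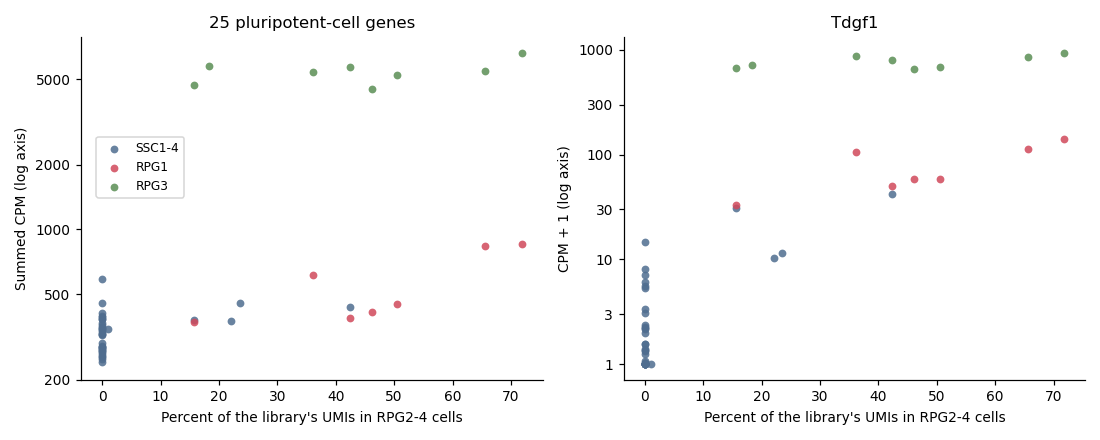
Summed CPM of the 25 pluripotent-cell genes (left, log axis) and CPM + 1 of Tdgf1 (right, log axis) per library and class, against the percent of the library's UMIs in RPG2, RPG3 and RPG4 cells; each point is 1 class in 1 library. SSC1-4 points in libraries without RPG2-4 cells lie at 13.8 CPM of Tdgf1 or below, and the RPG1 libraries with the highest RPG2-4 share, both of day 18, have the highest RPG1 values.

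The sum of the whole list of 25 pluripotent-cell genes was highest in RPG1 of day 18 and separated the SSCs less than *Tdgf1* did. It was 835 and 852 CPM in the RPG1 sums of day 18, where RPG2 to RPG4 cells gave 65.6% and 71.8% of the UMIs. It was 412, 451 and 373 in day 20 replicates 1, 2 and 8 and 387 and 617 in day 23 replicates 1 and 2. SSC1-4 held 379 CPM in day 20 replicate 8 and 436 in day 23 replicate 1, close to RPG1 of the same libraries, and 241 to 587 in libraries without RPG2 to RPG4 cells (median 327, and 379 in the 5 libraries with them). The highest SSC1-4 sum thus lay in a library without RPG2 to RPG4 cells. RPG3 held 4492 to 6641. Of the list, 0 or 1 gene was at 0 in an RPG1 sum. In day 18 replicate 3 the RPG1 cells ran from 498 (10th percentile) to 1183 (90th percentile) with a maximum of 1422, and the RPG3 cells began at 3494 (10th percentile). RNA of other cells in the same library can add UMIs to a cell, and its part in these levels was not tested.

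On day 20, cells whose names begin with D20_4 lay in 2 libraries, one with RPG3 cells and one without. The 88 such SSC1-4 cells in day 20 replicate 7, a library with no RPG2 to RPG4 cells, had 1.34 CPM of *Tdgf1*, 0 of *L1td1*, 5.34 of *Trh*, 35.8 of *Apoe* and 41.4 of *Ifitm2* (not scaled by TMM). The 24 SSC1-4 cells of that name in day 20 replicate 8 had 30.7, 6.66, 30.7, 111 and 99.7. The 18 RPG1 cells of that name in replicate 8 had 34.5, 8.84, 26.3, 108 and 139, so they lay close to the SSCs beside them. Only 1 of 95 cells of that name was RPG1 in replicate 7, against 18 of 47 in replicate 8. These are single libraries, and the 2 sets of cells may also differ in the colonies picked.

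A few genes were higher in RPG1 than in both SSC1-4 and RPG3, though not all of them than in RPG4. Of the 76 genes, 8 were called higher than in RPG3 too, a share near the 11.2% of all genes called so, and 6 of them had at least 20 CPM in RPG1, the level set for naming. *Lhx1*, a LIM homeobox gene that GDNF induces in cultured SSCs (chromosome 11, 84518284 to 84525535, minus strand), read 112 and 122 CPM in the day 18 libraries, 196, 148 and 135 in those of day 20 and 191 and 99.9 in those of day 23. The SSC1-4 libraries ran from 1.21 over a median of 50.3 to 120, and RPG3 averaged 10.5. The log2 fold change was 1.57 ± 0.33 over SSC1-4 and 3.93 ± 0.55 over RPG3. Against SSC3 alone it was 0.81 and did not pass (adjusted p = 0.39), nor did it against SSC4 (0.71, adjusted p = 0.417). In the 2 shared libraries *Lhx1* was 135 in RPG1 and 50.3 in SSC1-4, then 191 and 82.6, and it passed with the library as a block (1.32 ± 0.19, adjusted p = 0.028). Within the D20_4 cells of day 20 replicate 8 it was 70.3 in RPG1 and 50.05 in SSC1-4, against 180 in the D20_1 RPG1 cells (not scaled by TMM). With 1 name series per library it no longer passed (0.85, adjusted p = 0.134).

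The other 5 encode the keratin *Krt19* (47.5 ± 14.3 CPM in RPG1, 15.3 ± 11.1 in SSC1-4, 12.9 in RPG3), the septin *Sept6* (61.4, 20.8 and 22.2) and the membrane protein *Tmem132e* (49.4, 14.2 and 4.15). The remaining pair are *Ppp2r2c*, a regulatory subunit of the phosphatase PP2A (42.8, 14.2 and 4.84), and *Hs3st3b1*, a heparan sulfate sulfotransferase (39.1, 10.96 and 6.06). All 7 RPG1 libraries were above the SSC1-4 median for each. In RPG4 (2 sums) *Krt19* stood at 74.5 CPM and *Sept6* at 62.3, at or above RPG1, while *Lhx1* stood at 50.9 and the other three between 1.16 and 5.67. None of the 5 genes beside *Lhx1* passed against SSC3, where the log2 fold changes were 0.88, 0.76, 1.22, 1.17 and 0.63 in that order. With the library as a block the 8 genes had a median log2 fold change of 1.23, and the 7 of them tested with 1 name series per library one of 0.85. Further genes of the lists passed as higher than SSC1-4 at a low RPG3 level, including *Igf2* (105, 52.2 and 5.29 CPM) and *H19* (95.3, 47.0 and 15.7), an imprinted growth factor and its neighbouring non-coding RNA. *Gnas*, an imprinted G-protein locus, read 26.8, 12.7 and 5.99, and the collagen *Col5a1* 39.4, 15.9 and 5.40. *Igf2* also passed with the library as a block (1.40 ± 0.21, adjusted p = 0.029) and with 1 name series per library (1.24, adjusted p = 0.00437), but not against SSC3 (0.46, adjusted p = 0.614) or SSC4 (0.63, adjusted p = 0.336). Against SSC3, *H19*, *Gnas* and *Col5a1* did not pass either. The 4 genes that passed in the block were *Igf2*, *Lhx1*, the predicted gene *Gm10800* (1.96 ± 0.24, adjusted p = 0.00782) and *Acta1*, skeletal muscle actin. *Acta1* had a log2 fold change of 4.01 ± 0.54 there (adjusted p = 0.0148), with 44.8 CPM in RPG1 and 4.18 in SSC1-4 of day 20 replicate 8 and 42.2 and 1.68 in day 23 replicate 1. Both libraries are of batch B1, and *Acta1* did not pass against SSC1-4 of all libraries (1.12, adjusted p = 0.218).

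**Figure D3:**
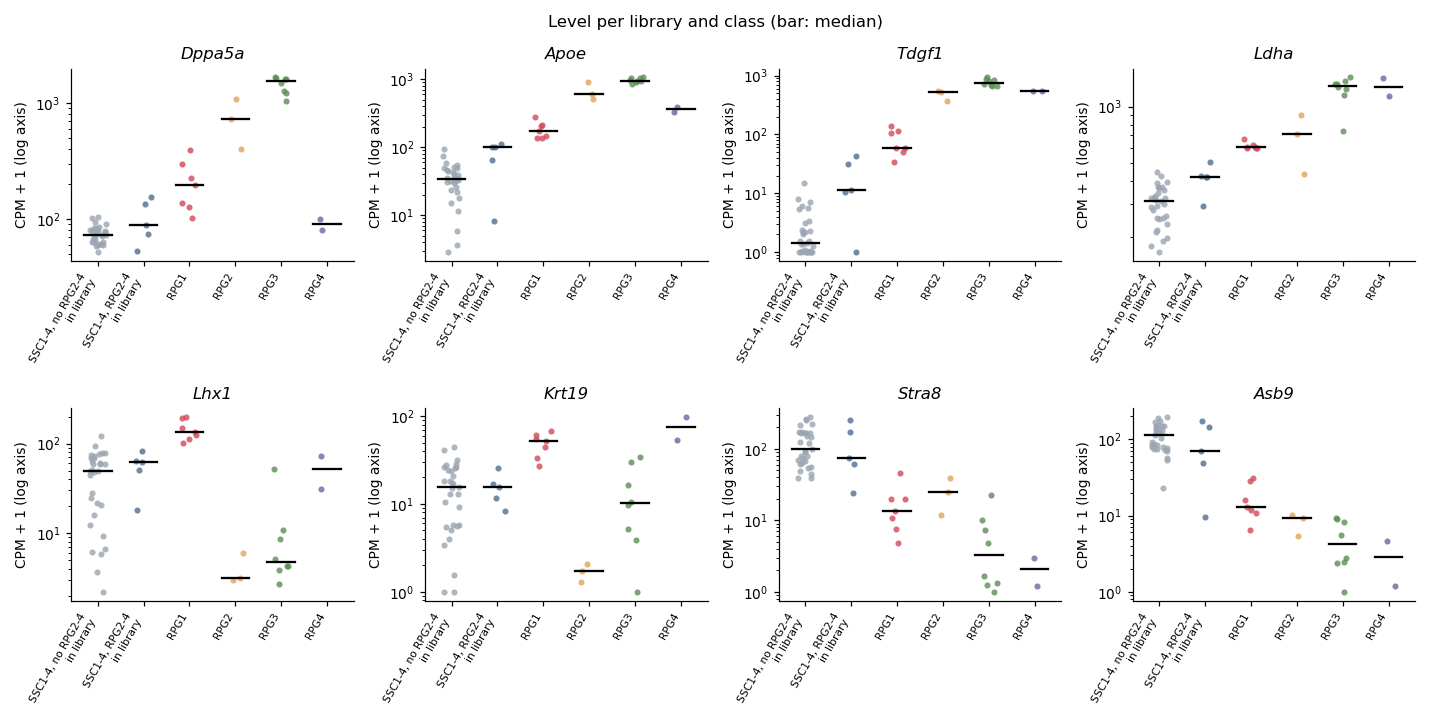
CPM + 1 (log axis) of 8 genes in each library and class, with SSC1-4 split by whether the library also held RPG2, RPG3 or RPG4 cells; points are libraries and bars medians. Tdgf1 in SSC1-4 is at a median of 10.5 CPM beside RPG2-4 cells and 0.40 away from them, Lhx1 averages 143 CPM in RPG1, above SSC1-4 and RPG3, and Stra8 and Asb9 are lower in RPG1 than in SSC1-4.

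Several genes of spermatogonia on the way to differentiation were lower in RPG1. *Stra8*, the retinoic acid target that marks differentiating spermatogonia (chromosome 6, 34920163 to 34939344, plus strand), read 9.71 and 12.4 CPM in the day 18 libraries, 3.87, 6.50 and 18.8 in those of day 20 and 18.6 and 44.3 in those of day 23. The SSC1-4 libraries ran from 23.2 over 96.6 to 275, so only day 23 replicate 2 entered their range (log2 fold change -2.90 ± 0.42). In the 2 shared libraries it was 18.8 in RPG1 and 73.6 in SSC1-4, then 18.6 and 59.7. In day 20 replicate 8 the RPG1 value joins 5.63 in D20_1 cells with 43.3 in D20_4 cells, and the D20_4 SSC1-4 cells had 74.7 (not scaled by TMM). *Nanos3*, an RNA-binding repressor of progenitor spermatogonia and primordial germ cells, stood at 62.8 ± 27.1 CPM against 190 ± 62.9 (-1.60 ± 0.21). *Sox3*, a progenitor transcription factor, stood at 7.19 against 27.01, and *Sohlh1*, a helix-loop-helix factor of differentiation, at 116 against 222. *Sox3* did not pass against SSC3 (-1.11, adjusted p = 0.214) or SSC4 (-1.21, adjusted p = 0.131), while *Stra8* and *Nanos3* passed against both.

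Other leading genes were lower in RPG1 too. *Asb9*, of the ankyrin and SOCS box family (chromosome X, 164506327 to 164539752, plus strand), read 5.46 to 30.3 CPM against 8.56 to 194, with means of 15.8 and 107. *Igfbp6*, which binds IGF2, stood at 28.02 ± 16.99 against 159 ± 81.5, *Mobp*, a myelin protein gene, at 3.68 against 40.6 and *Zbp1*, a nucleic acid sensor, at 10.5 against 60.1. *Lmo1* and *Lhx8*, of the LIM families, stood at 13.4 against 57.1 and 5.38 against 23.5. *Rtn1*, *Ccdc141*, *Stox2* and *Pramef12* had log2 fold changes between -2.02 and -1.87, and the nucleosome-binding gene *Hmgn5* of -1.82. *Hmgn5* did not pass against SSC3 (-0.66, adjusted p = 0.448) or SSC4 (0.13, adjusted p = 0.913). Against SSC1-4 of the same batch and days it did not pass either (-0.74, adjusted p = 0.151). *Pramef12* did not pass against SSC3 (-0.98, adjusted p = 0.107), nor *Stox2* against SSC4 (-1.15, adjusted p = 0.0969). The other genes of this paragraph passed against both clusters. Each gene named here as lower was below the SSC1-4 median in 7 of 7 RPG1 libraries, except *Sohlh1* in 1 library.

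The log2 fold changes of most of these genes were also negative between cells of the same library. The comparison that chose the genes includes the sums of these 2 libraries, so the shared sign is no independent test. With the library as a block, *Stra8* had a log2 fold change of -1.82, *Asb9* of -1.79, *Nanos3* of -0.96, *Sox3* of -3.08 and *Igfbp6* of -0.95, although none passed with 2 pairs. With 1 name series per library these were -1.25, -1.52, -0.89, -2.77 and -0.56, again with none passing. The 63 genes of the 84 that could be tested had a median of -1.21 with the library as a block, against 0.57 for 65 of the 76 higher genes and 0.03 for all genes. With 1 name series per library the medians were -1.01 over 61 genes, 0.34 over 60 and 0.02. Against RPG3, 12 of the 84 were called higher in RPG1, 8 lower and 30 neither, beside 11.2% and 9.55% of all genes, and 34 were not tested.

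**Figure D4:**
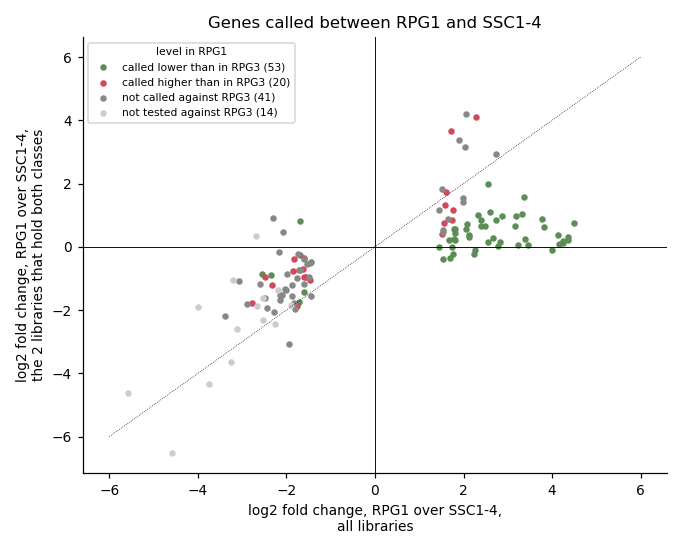
Log2 fold change of RPG1 over SSC1-4 in all libraries (horizontal) against that in the 2 libraries with both classes, library as a block (vertical), for the genes called in the first and tested in the second; colours give their call against RPG3 and the dotted line is equality. Genes called lower in RPG1 than in RPG3 and higher than in SSC1-4 spread from -0.38 (*Dnmt3l*) to 1.98 (*Notch3*) on the vertical axis (median 0.32 over 46 genes), while genes lower than in SSC1-4 lie mostly below it (median -1.21 over 63). Both axes use the sums of the 2 shared libraries.

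The list counts are read against all genes, of which 2.4% passed as higher and 3.02% as lower than SSC1-4. Of 24 pluripotent-cell genes tested, 14 passed as higher and 1 as lower, with a median log2 fold change of 2.05. This median was 0.19 with the library as a block. Among genes that answer to ERK signalling, which GDNF and FGF activate, 7 of 16 passed as higher and 0 as lower (median 0.67). They included the feedback inhibitors *Spry4* (45.1 against 18.9 CPM) and *Dusp4*, the transcription factor *Etv5* (132 against 67.8) and *Ccnd1*, cyclin D1 (90.2 against 46.3). Against SSC1-4 of the same batch and days 1 of 16 passed (median 0.41), and *Etv5* was at 0.37 (adjusted p = 0.355). Against SSC4 1 passed, and 0 did against SSC3 (median 0.29) or in the block (median 0.08). Of 24 SSC self-renewal genes, 4 passed as higher and 2 as lower.

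Hypoxia-response genes had 6 of 22 higher and 0 lower (median 0.48), with *Ankrd37* at 123 against 41.8 CPM and the glucose transporter gene *Slc2a1* at 223 against 105. In the day 18 libraries *Ankrd37* read 27.2 and 21.5 CPM, below the SSC1-4 median of 31.9, and within B2 its log2 fold change was -0.24. Against SSC3 0 of 22 hypoxia genes passed (median 0.34). *Ldha*, lactate dehydrogenase A, lay between 598 and 666 CPM in the 7 RPG1 libraries and between 165 and 502 in SSC1-4, and RPG3 was higher again. With the library as a block the hypoxia list had a median of 0.31 and 0 of 22 genes passed. Sugar and amino acid transporters had 6 of 21 higher and 0 lower, and epithelial junction and keratin genes 5 of 20 and 0, with *Cldn7* at 9.87 against 1.35 CPM and *Cldn6* at 10.9 against 2.33. Of the epithelial genes 0 of 19 passed with the library as a block (median 0.00) and 0 of 20 against SSC3 (median 0.17), and of the transporters 0 of 18 in the block (median 0.11). Redox genes had 3 of 24 higher, among them *Gsta4* and *Txn1*, a glutathione transferase and thioredoxin, and 0 of 24 in the block or against SSC3.

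Genes of several germ cell lists passed as lower. In the piRNA pathway, which silences transposons in the germ line, 5 of 18 genes passed as lower and 0 as higher (median -0.30). They included the phospholipase gene *Pld6* (22.96 against 39.3 CPM), the trimming nuclease gene *Pnldc1* (67.1 against 109), *Tdrd1* (83.5 against 116) and *Mael* (402 against 537). Against SSC3 0 of 19 piRNA genes passed (median -0.13), with the library as a block 0 of 18 (median -0.15) and against SSC1-4 of the same batch and days 1 of 19. Meiosis genes had 3 of 24 lower and 0 higher (median -0.24), namely *Tex12* (85.5 against 147 CPM), *Sycp3* and *Mei1*, while in the block 0 passed (median -0.06). Genes of spermatogonial differentiation had 4 of 15 lower and 1 higher (median -0.78). The retinoid genes had 3 of 16 lower, including the retinoic acid binder gene *Crabp1* (156 against 288 CPM). In the block 0 genes of either list passed (medians -0.27 and -0.44). *Rhox10*, an X-linked homeobox gene of germ cells, stood at 47.1 against 110, opposite to *Rhox5*. Interferon and MHC genes had 2 higher, *Ifitm2* and *Ifitm3*, and 4 of 19 lower, including *Ifi35* and *Isg15*. Against SSC3 the list had 2 higher and 0 lower (adjusted p = 0.258 for *Ifi35* and 0.349 for *Isg15*), and in the block 0 of 17 passed.

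Housekeeping and division genes gave other counts against single SSC clusters than against all SSC1-4. Of 54 nuclear genes of oxidative phosphorylation 0 passed in either direction (median -0.02), as did 0 of 24 G2/M genes (median 0.15). Ribosomal protein genes had 2 of 84 higher and S-phase genes 1 of 24 in each direction. By cluster, 22 of 24 G2/M genes passed as higher than in SSC4 (median 1.13) and 21 as higher than in SSC1 (0.71), while 8 passed as lower than in SSC2 (-0.39) and 0 in either direction against SSC3 (-0.20). S-phase genes had 5 higher than SSC4, 6 higher and 1 lower than SSC1 and 4 lower than SSC2. Ribosomal protein genes had 70 of 84 lower than SSC1 (median -0.51) and 17 higher than SSC3 (0.30), and oxidative phosphorylation genes had 22 of 54 lower than SSC1 (-0.21) and 3 higher than SSC4. Of all genes, 7.09% passed as higher and 6.68% as lower than in SSC1, 3.34% and 2.86% than in SSC2 and 2.04% and 1.25% than in SSC4. Fibroblast genes had 1 of 20 higher, *Col5a1*, and genes of other testis cells 1 of 10 higher and 1 lower, the lower being *Wt1* (2.58 against 13.2 CPM).

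**Figure D5:**
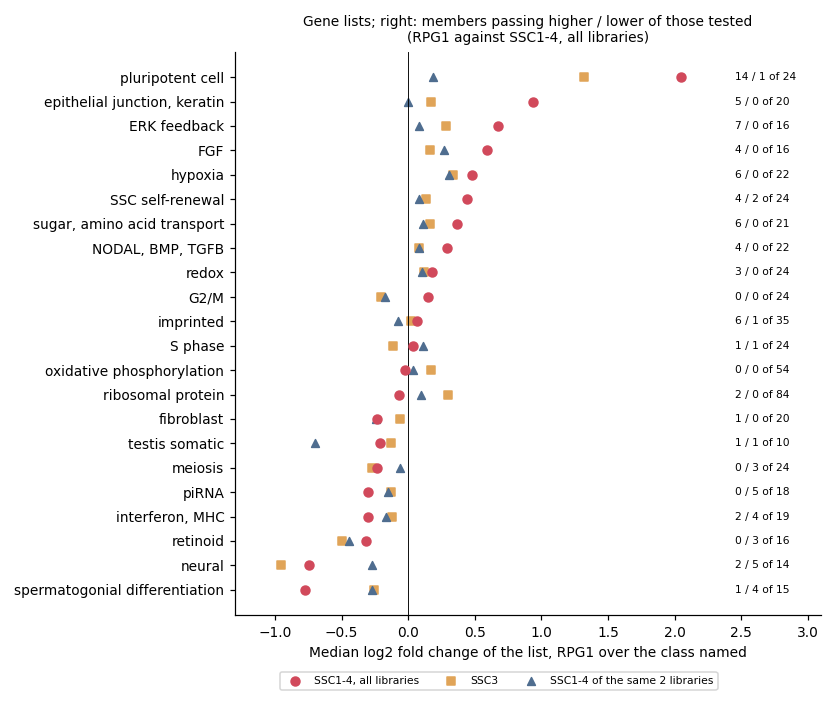
Median log2 fold change of RPG1 over SSC1-4 in all libraries (circles), over SSC3 (squares) and over SSC1-4 of the 2 shared libraries with the library as a block (triangles) for 22 gene lists, with the members that passed as higher and lower in the first. The pluripotent-cell list has medians of 2.05, 1.32 and 0.19, and the list of spermatogonial differentiation of -0.78, -0.26 and -0.27. The 3 comparisons share RPG1 libraries.

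Among the 4 SSC clusters RPG1 stood nearest to SSC3 by the number of genes called. Of 16052 genes, 302 were called higher (1.88%) and 107 lower (0.667%) than in SSC1, 145 (0.903%) and 65 (0.405%) than in SSC2 and 46 (0.287%) and 19 (0.118%) than in SSC4. Against SSC3 3 were called higher (0.0187%) and 9 lower (0.0561%), with 2062 at an unadjusted p below 0.05, in the same fit with 18 SSC3 sums against 28, 23 and 16 of SSC1, SSC2 and SSC4. The 3 higher genes were *Apoe* (1.96), *Ifitm2* (2.197) and *Snrpn* (1.70 on the log2 scale). The 9 lower ones were *Stra8*, *Asb9*, *Igfbp6*, *Mobp*, *Rtn1*, *Chrdl1*, *Gfra3*, *Tubb2a* and *Zar1l*, of which the last 4 were named after their values were seen. SSC3 cells were the deepest of the SSCs, at a median of 378771 UMIs, and SSC1 cells the shallowest at 149268. Against SSC3 150 genes passed as higher (0.934%) and 93 as lower (0.579%). There the ERK list had a median of 0.29 with 0 of 16 passing, the SSC self-renewal list one of 0.13 and the pluripotent-cell list one of 1.32 with 4 of 23 higher. Of the SSC1-4 cells in RPG1 libraries 36.5% were SSC3 (19 of 52) and 34.6% SSC4 (18 of 52), against 21.5% (475 of 2213) and 19.7% (436) elsewhere.

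More genes were called between RPG1 and RPG3 than between RPG1 and SSC1-4. Of 13419 genes, 1509 were called higher in RPG1 (11.2%) and 1281 lower (9.55%), with 7 and 8 libraries. At an adjusted p below 0.05, 25.3% of all genes were higher and 26.2% lower. Beside these shares, all 25 pluripotent-cell genes passed as lower in RPG1 (median -3.83) and 16 of 18 piRNA genes as higher (median 2.69). *Dazl* was higher by 2.76, *Ddx4* by 2.99 and *Zbtb16* by 3.97 on the log2 scale. The SSC self-renewal genes had 16 of 22 passing as higher and 2 as lower. The comparison shares the RPG1 sums with the one against SSC1-4. All 7 RPG1 libraries also held an RPG3 sum, and these counts and calls do not use that pairing. With the library as a block 4246 genes passed as higher and 4022 as lower, beside 3392 and 3519 without it. RPG2, which came only from batch B2 (3 sums), had 3.06 CPM of *Lhx1* and 484 of *Tdgf1*, but 238 of *Nanos3*, above the 62.8 of RPG1.

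Within RPG1, the libraries of day 18 and those of days 20 and 23 differed, and these are also the authors' batches B2 (2 libraries) and B1 (5), so day and batch cannot be told apart. Of 15458 genes 5 were called higher in B2 (0.0323%) and 22 lower (0.142%), and 149 (0.964%) and 138 (0.893%) passed. Leaving out 1 of the 2 B2 libraries leaves a single library in that group, so no count is given for it. Leaving out 1 B1 library gave 2 to 8 called higher and 11 to 19 lower. *Sox2* read 168 and 77.4 CPM in B2 and 26.4 to 42.8 in B1, *Fzd7*, a WNT receptor gene, 76.6 and 133 against 13.8 to 32.3, and the glycine decarboxylase gene *Gldc* 29.3 and 50.7 against 6.96 to 12.3. *Rhox5* read 84.4 and 188 against 13.1 to 39.8. *Ankrd37* was lower, at 27.2 and 21.5 CPM against 97.2 to 243. *Wfdc15a*, *Acta1*, *Lrriq4* and *Cd2* were at or below 2.02 CPM in B2 and between 9.86 and 44.8 in B1.

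The 24 G2/M genes were higher in B2 RPG1 as a group, 18 passing and 0 lower with a median of 0.82, beside -0.05 over all genes. Their sum was 6906 and 7846 CPM in B2 and 3571 to 4426 in B1. SSC1-4 gave 4109 to 6387 in B2 and 3084 to 5740 in B1, and RPG3 6493 to 9241 and 5790 to 6826. Of 24 S-phase genes 1 passed as higher. Hypoxia genes went the other way, with 6 of 21 lower (sums of 1582 and 1796 CPM in B2 and 2335 to 2634 in B1). RPG3 gave hypoxia sums of 1625 to 3200 CPM in B2 and 3356 to 4205 in B1, so the batches differed there too. SSC1-4 gave 1147 to 1746 and 1193 to 2409. Of the 25 pluripotent-cell genes 3 passed as higher.

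Cells that the clustering had not used came from 5C samples, in which SSCs were reprogrammed with vitamin C, daphnetin, epigallocatechin gallate, tauroursodeoxycholic acid and SGC707. Here the RNA arm of scTrio-seq2 was measured and the authors predicted each cell's class with a classifier trained on the clusters, so the class is not independent of the genes. The 6 samples with at least 3 cells of both classes held 18, 3, 11, 30, 3 and 8 RPG1 cells. By their cell names these samples are of days 12, 14 and 16. Most RPG1 cells of the original condition came on days 18, 20 and 23. With the sample as a block, 0 of 9551 genes were called higher (0%) and 1 lower (0.0105%), *RP23.4H17.3*, named after its value was seen, with 480 at an unadjusted p below 0.05. DESeq2 gave 0 and 1. *Dppa5a* passed, at 1.05 ± 0.20 on the log2 scale (adjusted p = 0.0256), and was higher in RPG1 in 6 of 6 samples, with 218 against 94.98 CPM in 5C sample 2 and 378 against 80.7 in 5C sample 3. It no longer passed without 5C sample 2, without 5C sample 6 or without the block, where 0 genes passed as higher.

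*Apoe*, *Ifitm2*, *Trh*, *L1td1* and *Hspb1* were also higher in RPG1 in 6 of 6 5C samples, and *Slc2a3* in 3. 5C sample 2 held no RPG2, RPG3 or RPG4 cell, and there *Trh* was 153 against 69.5 CPM and *L1td1* 39.6 against 19.97, although 2 and 12 cells were of Early-pluripotency clusters 1 and 2. By its cell names 5C sample 2 joins cells of 2 name series, as 5C sample 7 does, and these series were not separated here. Of the 76 genes called higher in the original condition, 33 were tested in the 5C samples and 29 had a higher level in RPG1 there, beside 43.4% of all genes. Of the 84 called lower, 22 were tested and 19 were lower, beside 56.6% of all genes. *Asb9* and *Ccdc141* were lower in 6 of 6 samples, whereas *Sox3* was higher in 4 of 6 (log2 fold change 0.39, adjusted p = 0.99), *Igfbp6* in 3 and *Stra8* in 2. Of the genes called higher than in both neighbours, 6 were tested and 2 were higher, with a median of -0.27. These classes were predicted from a model trained on the clusters, so the counts are a description.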

How the data were processed

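Single cells of the original condition were sequenced by a modified STRT-seq, and the 5C cells by the RNA arm of scTrio-seq2. Per the labels and the methods of the authors, UMIs were extracted with UMItools, reads were aligned to mm10 with STAR 2.7.2b, featureCounts 2.0.0 assigned them to genes and UMItools then gave the deposited counts, which are whole UMI counts per gene and cell with no normalization. The authors also deposited the percent of mitochondrial UMIs per cell, the batch and the cluster, and these were used as given. No doublet caller was run here.

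UMI counts were summed over the cells of 1 class in 1 library (at least 5 cells, or 3 in 5C samples) and tested with edgeR 4.0.16 in R 4.3.3 by the quasi-likelihood test after filterByExpr and TMM scaling, with Benjamini-Hochberg adjustment. A gene was called where the adjusted p was below 0.01 and the size of its fold change reached 1 in natural log units. Sums of RPG1 were compared with those of SSC1-4, of each SSC cluster, of RPG3, and between batches. In 5C samples the sample was a block. DESeq2 1.42.0, other filters, other minimum cell numbers, batch, day, library and name-series subsets and leaving out each library were the alternatives. The fits were checked on simulated data. Tables and plots were made with Python 3.11, numpy 2.4.6, pandas 2.3.3, scipy 1.17.1 and matplotlib 3.10.9. Gene positions are those of GRCm38.

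Library depth was 15975410 to 34609591 UMIs, and exact binomial intervals cover counting error only. Named genes were the 5 given markers, the 12 largest called fold changes and 6 largest differences in CPM in each direction (at least 20 CPM and all RPG1 libraries on one side of the SSC1-4 median), up to 8 genes above both SSC1-4 and RPG3, up to 4 passing members of a list, the 4 largest of each direction between batches, and markers the study names. From these the text gives a selection. The members, gene lists and tests were chosen with earlier results of these data known. Both classes come from the same library in 2 libraries, which is where the pairing comes from. Their deviations correlated across genes at 0.107 and 0.102. DMSO samples and DNA methylation data were not analysed here. A list of mitochondrially encoded genes matched no gene names of the files.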

Additional observations from a re-analysis of the deposited data

Results flagged for a closer look

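Within the 7 RPG1 libraries, 91 genes and list sums were looked at for 1 library far from the others by Dixon's test at 95%, which flags about 1 in 20 groups by chance. Day 18 replicate 5 stood apart as highest for *Stmn2* (82.2 CPM, the others 11.1 to 33.4), *Rhox5* (188 CPM, the others 13.1 to 84.4), *Hspb1* (203 CPM, the others 39.6 to 100.5) and *Nanog* (28.7 CPM, the others 6.90 to 13.2), and as lowest for *Igf2* (37.1 CPM, the others 97.9 to 138). Day 18 replicate 3 was highest for *Sox2* (168 CPM, the others 26.4 to 77.4) and *Mycn* (80.8 CPM, the others 23.5 to 46.5). Day 23 replicate 2 was highest for *Stra8* (44.3 CPM, the others 3.87 to 18.8), *Zbp1* (28.8 CPM, the others 3.18 to 10.9), *Lmo1* (38.5 CPM, the others 2.29 to 15.4), *Cldn7* (20.5 CPM, the others 5.10 to 10.5) and *Ldha* (666 CPM, the others 598 to 618). Day 23 replicate 1 was lowest for *Stox2* (1.45 CPM, the others 7.34 to 9.96). Day 20 replicate 1 was highest for *Dusp4* (27.6 CPM, the others 4.73 to 14.4), and day 20 replicate 8 for the sum of the meiosis genes (3068 CPM, the others 2800 to 2893).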

How the results depend on the processing

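RPG1 had at least 5 cells in 7 libraries, and only 2 of them held at least 5 SSC1-4 cells, so the comparison within a library rests on those 2. Against the 76 genes called higher and 84 lower than in SSC1-4, DESeq2 called 70 and 195 and no filter on low counts gave 399 and 92. SSC1-4 of the same batch and days gave 40 and 40, the same with batch as a covariate 36 and 48, sums per batch and day 45 and 32, within B1 22 and 36 and within B2 3 and 0. With the library as replicate block 1 was called higher and 0 lower, with 1 name series per library and the block 2 and 0 (chosen after seeing the data), and without the block in the same libraries 0 and 0. Leaving out 1 library gave 54 to 71 higher and 45 to 88 lower. Between batches, 5 and 22 became 15 and 162 with DESeq2, 10 and 44 with no filter, and 2 to 8 and 11 to 19 when 1 B1 library was left out. In the 5C samples the 1 gene called lower was lost without the block (0), and leaving out 1 sample gave 0 to 1. Some log2 fold changes of the genes described against SSC1-4 changed sign. With the library as block they were -0.0091 for *Dppa5a*, 0.13 for *Dazl*, -0.021 for *Snrpn* and 0.076 for *Sycp3*. Other called genes, picked here after their values were seen, changed sign in the block too, among them *Ak1* (-0.12), *Bcat1* (-0.21) and *Dnmt3l* (-0.38). With 1 name series per library and the block the described genes that changed sign were *Sox2* (-0.095), *Dazl* (0.14) and *Sycp3* (0.16). Genes of the lists that are not described above changed sign there too, among them *Jak1* (-0.0066). In the same libraries without the block they were 0.11 for *Dazl*, -0.049 for *Snrpn* and 0.081 for *Sycp3*. *Dazl*, which did not pass, was also 0.16 with SSC1-4 of the same batch and days, 0.11 with batch added, 0.011 with at least 10 cells per sum and 0.080 within B2, where *Ankrd37* was -0.24. Of the genes named, 15 no longer passed without day 18 replicate 3, 12 without day 18 replicate 5, 11 without day 20 replicate 2, 7 without day 20 replicate 1, 6 without day 20 replicate 8, 6 without day 23 replicate 1 and 4 without day 23 replicate 2. More no longer passed in comparisons with fewer samples, 67 with the library as block, 68 with 1 name series per library, 70 in the same libraries without the block, 67 within B2, 18 within B1, 21 with sums per batch and day and 15 with SSC1-4 of the same batch and days. With 50000 UMIs per cell 7 of 13 shares of RPG1 cells moved beyond their interval. The causes were not tested.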
